A study of Mus musculus with 2 samples.

Results

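The genes of the constitutive proteasome were examined in mouse embryonic fibroblasts with and without Dnmt1, the maintenance DNA methyltransferase, which restores CG methylation after replication. Members were all array probes whose gene symbol was Psma, Psmb, Psmc, Psmd, Psme, Psmf or Psmg followed by a number, except Psmb8, Psmb9 and Psmb10. These were 60 of 25697 probes and 40 of 16593 genes. The symbol rule itself used no measured value, but it was chosen with earlier results of these data known. Of 45 genes of these families that were listed, Psmd3, Psmf1, Psmg4, Psma8 and Psmb11 had no probe under their symbols. The label fits the members except for the activator genes Psme1 and Psme2, which are also known to be induced by interferon.

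Both samples were cultured embryonic fibroblasts of C57BL background, each measured as 1 sample on an Illumina bead array. The control genotype was p53-/-, and the other was Dnmt1-/- (p53-/-), so that the loss of p53 was shared by both. No drug or time course was applied, and the labels do not say whether each line was a clone or how many embryos it came from. With 1 array per genotype no test was possible, differences carry no p-value, and all values describe these 2 samples. Whether a deposited value averages several hybridisations of a sample is not stated in the labels or headers, and the files hold no spread for it.

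Proteasomes are the large proteases that break down proteins marked with ubiquitin chains. Their core particle is a barrel of alpha and beta rings in which 3 beta subunits cut peptides, and a regulatory particle on its ends binds ubiquitin, removes it and threads the substrate in. Every growing cell needs this machine, and in mammals the transcription factor encoded by Nfe2l1 raises most subunit genes together when proteasome activity is low.

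The arrays gave a median signal of 150.5 units for the control and 129.8 units for the Dnmt1-null line, with 40.1% and 39.1% of probes detected at a detection p-value under 0.01. Dnmt1 itself had a signal of 1715 units in the control and 439.0 units in the Dnmt1-null line, a difference of -2.18 log2, and whether its probe lies inside or outside the deleted sequence is not known from the files. Of 12 measured fibroblast markers 10 were detected on both arrays, among them Col1a1, Col1a2, Col3a1 and Vim, while Lum and Postn were not detected. Summed normalized levels on the linear scale were 53182 and 48698 for the fibroblast markers, 177 and 888 for 5 epithelial markers, 287 and 1804 for 4 muscle markers, 183 and 313 for 4 blood markers, 106 and 107 for 4 endothelial markers and 90.4 and 124 for 3 germ cell markers, control first. The sums include undetected markers, which add values at the level of background. Detected were 0 endothelial markers on either array, and 0 epithelial and 0 germ cell markers on the control array. Among the defining markers, Ptprc, Pecam1, Cdh1, Des and Ddx4 were detected on neither array. Several other markers had more signal without Dnmt1. The epithelial Krt14 was higher by at least 8.74-fold and likewise Krt7 by 7.63-fold, the muscle gene Acta1 differed by 3.14 log2 and the blood marker Cd14 by 1.16 log2. Krt8, the muscle regulators Myod1 and Myog, and the germ cell gene Dazl passed detection on the Dnmt1-null array only, at least 1.17-fold, 1.70-fold, 1.65-fold and 1.42-fold higher. The part of these other markers in the results below was not tested.

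Proteasome genes differed little between the arrays. Of the 40 members, 38 were detected, all 38 of them on both arrays, and 0 differed by 1.5-fold or more in either direction, compared with 20.7% of all 7727 detected genes. At 2-fold or more the members again numbered 0, against 10.1% of all detected genes. The median log2 difference, taken as the Dnmt1-null value minus the control value, was -0.0089 for the members and -0.037 for all detected genes. Differences of the members ran from -0.39 log2 for Psmc5 (a change of -23.7%) to 0.44 log2 for Psme2 (35.9%). The members lay on both sides of 0, with 18 above, 19 below and Psmb3 at 0, and 45.8% of all detected genes lay above 0.

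A smaller fold of 1.2, chosen after the values were seen, was reached by 6 of the 38 detected members, against 49.5% of all detected genes. The 3 higher ones were Psmb5, Psmd2 and Psme2, against 22.3% of all detected genes higher by as much. The 3 lower ones were Psma5, Psmb6 and Psmc5, against 27.2%. The typical size of a difference, as the median of its absolute value, was 0.14 log2 for the members and 0.26 log2 for all detected genes. Bright probes scatter less than dim ones, and 32 of the 38 members lay in the upper part of the detected genes, above the median of their mean level. Within that part, 87.5% of the members and 58.5% of the 3864 genes were within 1.2-fold.

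**Figure D1:**
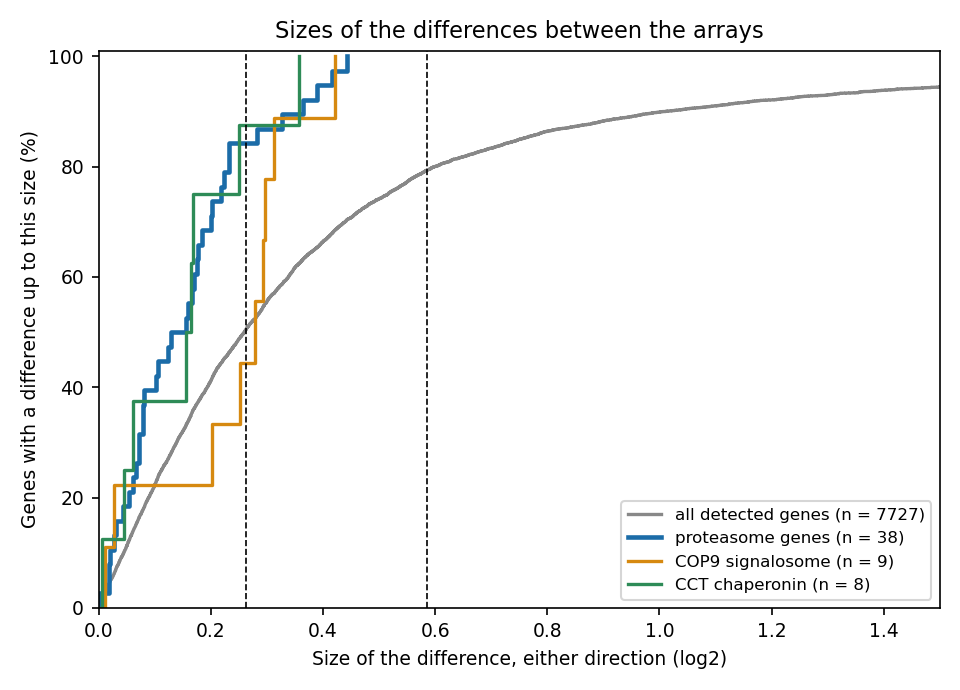
Cumulative share of genes (%, vertical axis) with a difference up to a given size in either direction (log2, horizontal axis) for all 7727 detected genes, 38 proteasome genes, 9 genes of the COP9 signalosome and 8 of the CCT chaperonin, with dashed lines at 1.2-fold and 1.5-fold. The proteasome curve reaches 100% at 0.44 log2, while 20.7% of all detected genes lie beyond 1.5-fold.

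A second yardstick was the scatter of the difference among the 500 detected genes nearest in mean level, expressed as a robust SD. It describes genes on these arrays and not replicates. Past their own scatter were 5 members, or 13.2%, against 34.8% of all detected genes. These were Psma5, Psmb6 and Psmc5 on the lower side and Psmb5 and Psme2 on the higher side. The other 33 differed by no more than genes of similar brightness usually did.

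**Figure D2:**
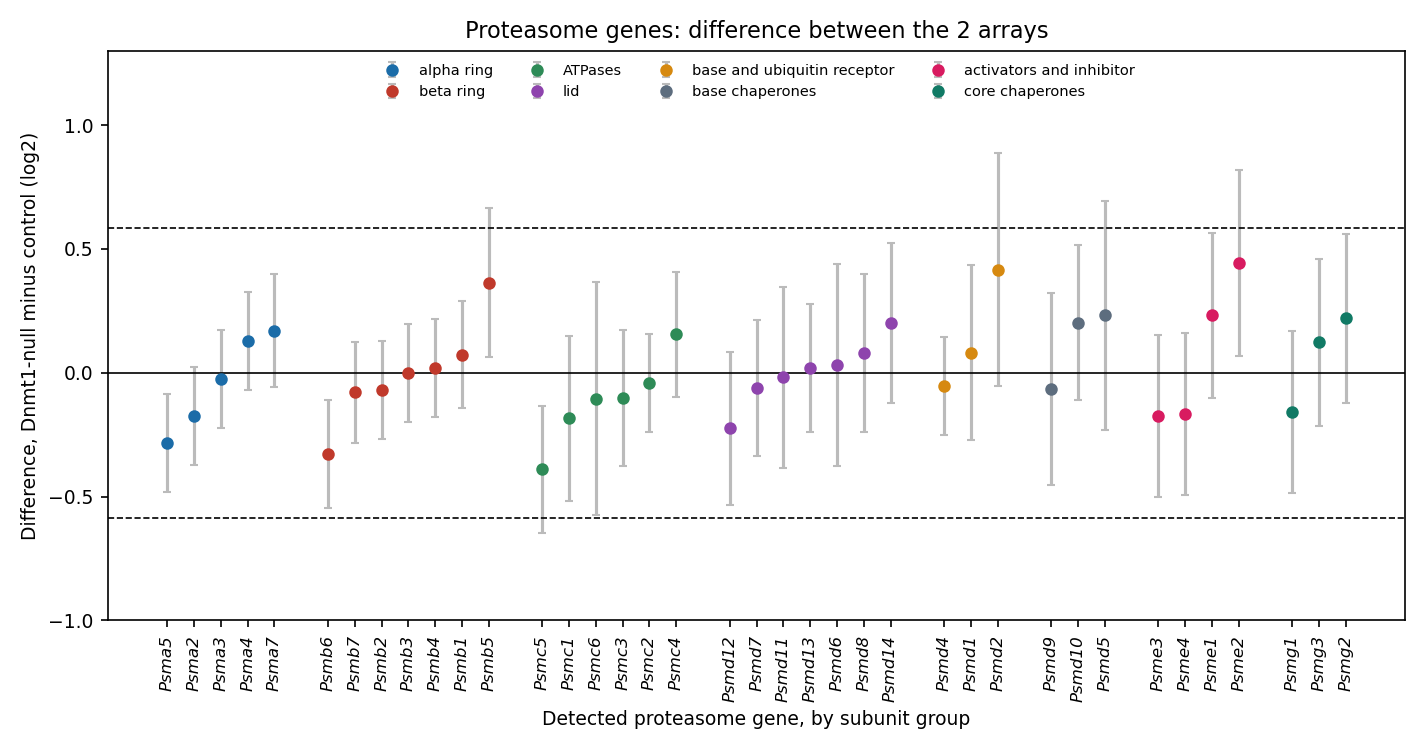
Difference between the arrays (Dnmt1-null minus control, log2, vertical axis) for the 38 detected proteasome genes, ordered within 8 subunit groups; points are single differences, grey bars span 1 robust SD of genes of similar level on each side, and dashed lines mark 1.5-fold. All points lie between -0.39 and 0.44 log2, and Psma5, Psmb6, Psmc5, Psmb5 and Psme2 clear 0 by more than their bar.

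The alpha ring forms the outer gate of the core particle. Of its 7 genes 5 were detected, with a median of -0.027 log2. Psma5 gave 13852 units in the control and 12147 units in the Dnmt1-null line, a difference of -0.28 log2 against a scatter of 0.20 log2. Psma7 lay at the other end with 6069 and 7123 units, or 0.17 log2, within its scatter of 0.23 log2. The remaining detected genes, Psma2 (-0.18 log2), Psma3 (-0.027 log2) and Psma4 (0.13 log2), were in between. Psma1 and Psma6 were not well above background on either array, with signals of 123 and 107 units for Psma1 and 129 and 110 units for Psma6. Each had a single probe, so their levels were not measured here.

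The beta ring holds the active sites. All 7 of its genes were detected, and their median was 0 log2. The structural subunits Psmb1, Psmb2, Psmb3 and Psmb4 ranged from -0.071 to 0.073 log2. The catalytic ones spread more. Psmb5, which cuts after hydrophobic residues, was higher, with 1873 units in the control and 2308 units in the Dnmt1-null line (0.36 log2, scatter 0.30 log2). Psmb6, which cuts after acidic residues, was lower, with 7526 and 6308 units (-0.33 log2, scatter 0.22 log2). Psmb7, which cuts after basic residues, had 7628 and 7683 units (-0.079 log2, scatter 0.20 log2). The catalytic subunits, which are present in equal numbers in a core particle, thus did not share a direction on these arrays.

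The inducible subunits replace the catalytic ones in the immunoproteasome of interferon-treated and immune cells, Psmb9 in the place of Psmb6, Psmb10 of Psmb7 and Psmb8 of Psmb5. Psmb9 passed detection only on the Dnmt1-null array, at 193 units against 148 units in the control, which after background correction corresponds to at least 1.99-fold higher, a limit for that setting only. Its detection p-value was 0.163 in the control and 0.000313 after loss of Dnmt1. The measured difference was 1.57 log2 with background correction and 0.58 log2 without it, the latter just under 1.5-fold, so its size rested on this step. Psmb10 was read by a pair of probes, which gave 0.48 log2 each, from 1151 to 1510 units for the first and from 1152 to 1507 units for the other. This was past its scatter of 0.35 log2 and below 1.5-fold. Psmb8 had 146 and 153 units and was not detected on either array, with detection p-values of 0.22 and 0.014.

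Interferon response genes were measured beside them. Of 7 on the array 3 were detected, namely Isg15 (at least 10.6-fold higher), B2m (0.80 log2) and Irf1 (0.306 log2, within its scatter of 0.311 log2). Tap1, the peptide transporter gene next to Psmb9 and Psmb8 on chromosome 17, was detected on neither array, and neither were Ifit1, Irf7 and Nlrc5. The part of interferon signalling in the values of Psmb9, Psmb10, Psme1 and Psme2 was not tested.

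**Figure D3:**
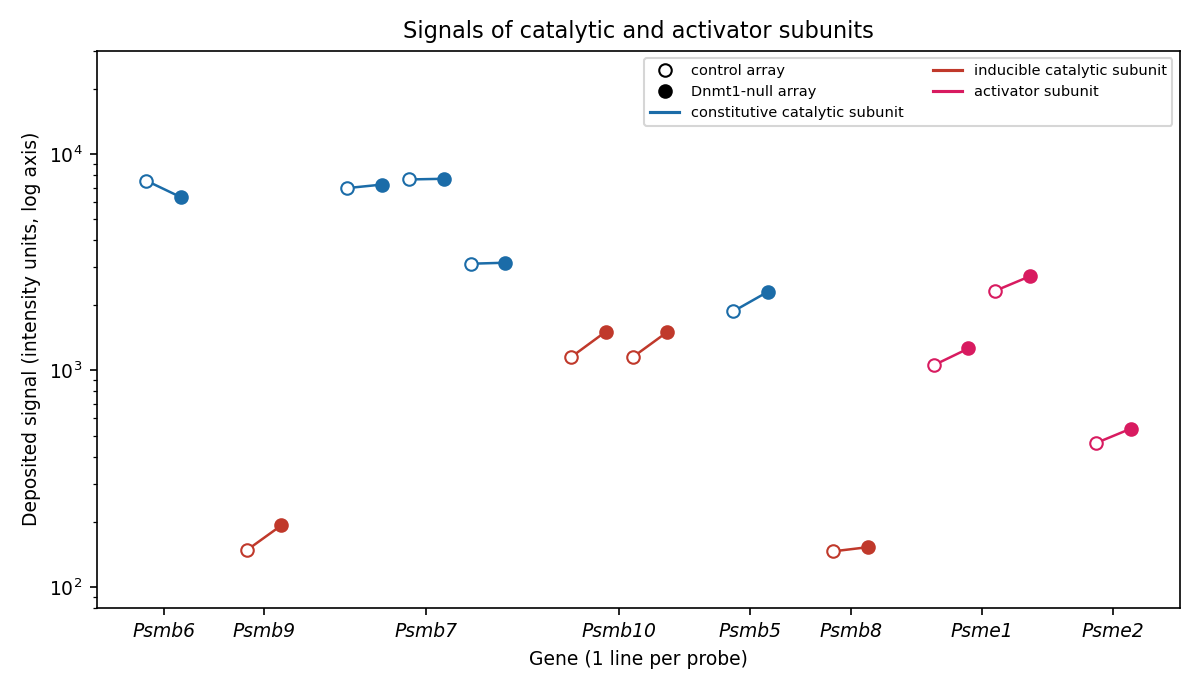
Deposited signals (intensity units, log axis) of the constitutive catalytic subunits (blue), the inducible subunits (red) and the activator subunits Psme1 and Psme2 (pink), 1 line per probe from the control array (open circle) to the Dnmt1-null array (filled circle). Psmb6 declines from 7526 to 6308 units, while both Psmb10 probes, Psmb5, Psme1 and Psme2 incline upward; heights of different probes are not comparable.

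Activators bind the ends of the core in place of the regulatory particle. Psme1 and Psme2 together form the interferon-inducible activator ring, and their genes lie near each other on chromosome 14. Psme2 had 461 units in the control and 538 units in the Dnmt1-null line, a difference of 0.44 log2 that was past its scatter of 0.37 log2. Over 8 alternative ways of processing the difference of Psme2 ran from 0.33 to 0.47 log2. It was below that scatter without background correction (0.34 log2), after scaling to a shared median (0.33 log2) and with the authors' values (0.34 log2). Psme1 had 2336 and 2727 units by its brighter probe (0.23 log2, scatter 0.33 log2), and 0.37 log2 by the other. Both were thus higher in the line without Dnmt1, by less than 1.5-fold. The activators with other partners lay on the opposite side of 0. Psme3, of the nuclear activator that works without ubiquitin, had 2496 and 2193 units (-0.17 log2). Psme4, whose product opens the core for acetylated histones in the testis, had 2740 and 2477 units (-0.17 log2). Neither was past its scatter of 0.33 log2.

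The ATPases form the ring that unfolds substrates. All 6 were detected, with a median of -0.10 log2. Of these 5 lay below 0, against 4167 of all 7727 detected genes. Psmc5 had the lowest value of all members, with 5313 units in the control and 4265 units in the Dnmt1-null line (-0.39 log2, scatter 0.26 log2). Its other probe, at 3419 and 3212 units, gave -0.13 log2, so the size of this difference depended on the probe. Psmc4 was the only ATPase gene above 0, with 4569 and 5250 units (0.15 log2, scatter 0.25 log2). Psmc1 (-0.18 log2), Psmc6 (-0.11 log2), Psmc3 (-0.10 log2) and Psmc2 (-0.043 log2) stayed within their scatter.

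The lid of the regulatory particle removes ubiquitin chains. All 7 lid genes on the array were detected, with a median of 0.019 log2. Past their scatter were 0 of them, against 34.8% of all detected genes. Psmd14, the deubiquitinating enzyme of the lid, was the highest, with 2252 and 2552 units (0.20 log2, scatter 0.32 log2). Psmd12, a scaffold subunit, was the lowest, with 3306 and 2917 units (-0.22 log2, scatter 0.31 log2), while its dimmer probe gave 0.075 log2. Psmd6, Psmd7, Psmd8, Psmd11 and Psmd13 lay between -0.061 and 0.079 log2.

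The base carries the scaffold and the ubiquitin receptors. Psmd4, a receptor that binds ubiquitin chains directly, had 9157 and 9309 units (-0.054 log2), and the scaffold gene Psmd1 had 983 and 975 units (0.080 log2). Psmd2, where shuttle proteins dock, had the second highest difference at 0.42 log2. Its signals were 194.1 units in the control and 193.0 units in the Dnmt1-null line, close to background on both arrays, and its scatter was 0.47 log2. The difference arose in background correction and normalization from nearly equal signals, and without background correction it was 0.18 log2.

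Assembly chaperones bind parts of the particle before it is complete and are absent from the finished machine. Of the chaperones of the base, Psmd10 (gankyrin) had 1744 and 1925 units (0.20 log2), and Psmd5 had 242 and 235 units (0.23 log2). The sign for Psmd5 arose in normalization between the arrays, since its signal was the lower one without Dnmt1. Without background correction its difference was 0.12 log2, and its dim probe gave -0.050 log2. Psmd9 had 348 and 302 units (-0.067 log2). All 3 were within their scatter, which was between 0.31 and 0.46 log2. Psmd10 was the X-linked member among genes on 16 chromosomes, and its 3 probes gave 0.20 to 0.31 log2.

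The core chaperones Psmg1 and Psmg2 act as a pair on the alpha ring. Psmg1 had 1271 and 1101 units (-0.16 log2), and Psmg2 had 1429 and 1598 units (0.22 log2), with scatters of 0.33 and 0.34 log2. The partners of the pair therefore lay on opposite sides of 0, each within the scatter. Psmg3, another alpha-ring chaperone, had 940 and 953 units (0.12 log2).

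**Figure D4:**
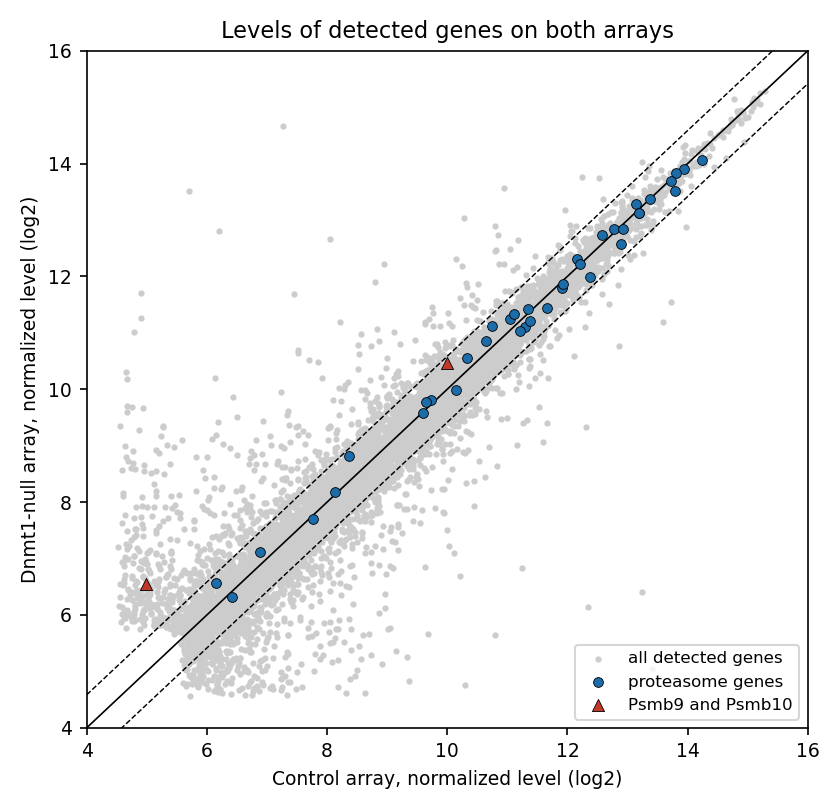
Normalized level on the control array (log2, horizontal axis) against the Dnmt1-null array (log2, vertical axis) for all 7727 detected genes (grey), the 38 detected proteasome genes (blue) and the inducible subunits Psmb9 and Psmb10 (red triangles), with the line of equality and dashed lines at 1.5-fold. All blue points lie between the dashed lines, and Psmb9 lies above them.

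Probes of the same gene gave a check on single values, although they were read on the same arrays and are not replicates. Of 12 members with 2 or more detected probes, 9 had all probes on the same side of 0 and 3 (Psmb2, Psmd7 and Psmd12) did not. The median gap between probes was 0.090 log2 and the largest 0.30 log2, for Psmd12. The probes of Psma7 gave 0.17 log2 each and those of Psmb7 between -0.079 and -0.019 log2. In all, 6 members, among them Psmb2 and Psmd11 of the 12, had 1 dim probe beside 1 or more detected ones. An example was Psma3, with 14946 units on 1 probe of the control array and 130 units on the other.

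Partners of the proteasome ranged from -0.27 to 0.36 log2. Of 31 listed genes of proteasome cofactors, shuttle proteins, regulators and ubiquitin, 17 were on the array and 13 detected, with a median of 0.077 log2. Past 1.5-fold in either direction were 0 of them, against 20.7% of all detected genes. The largest differences were those of Usp14, a deubiquitinating enzyme on the base (570 and 642 units, 0.36 log2), Ubqln1, a shuttle protein (3348 and 2861 units, -0.27 log2), and Ecpas, an adaptor that holds core and regulatory particle together (842 and 915 units, 0.24 log2). Usp14 was past its scatter of 0.32 log2, while Ubqln1 and Ecpas were within theirs of 0.31 and 0.37 log2. Named after its value was seen, Pomp, a chaperone of beta-ring assembly, had 8693 and 10496 units (0.23 log2, scatter 0.20 log2). Nfe2l1, the activator of proteasome genes, had 3293 and 3653 units (0.12 log2, scatter 0.29 log2).

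Other multi-subunit machines were set beside the proteasome to show where it stood. The CCT chaperonin, which folds actin and tubulin, had 8 of 8 genes detected with a median of 0.026 log2. Cytosolic ribosomal protein genes (52 of 57 detected) had a median of -0.0030 log2, and mitochondrial ones (70 of 76) -0.0085 log2. Within 1.2-fold were 87.5% of the CCT, 94.2% of the cytosolic and 78.6% of the mitochondrial ribosomal genes. The share was 84.2% for the proteasome genes and 50.5% for all detected genes. Past 1.5-fold were 0 CCT genes, 1 cytosolic and 1 mitochondrial ribosomal gene. Small differences were thus not particular to the proteasome genes. The COP9 signalosome, whose architecture resembles the lid, had 9 of 9 genes detected, with 44.4% within 1.2-fold. Past 1.5-fold were 0 of them, against 20.7% of all detected genes. Below 0 were 8 of the 9, against 4167 of all 7727 detected genes, and their median was -0.28 log2. For the lid itself the corresponding values were 3 of 7 below 0 and 0.019 log2, a median that was -0.029 log2 after scaling to a shared median and -0.022 log2 by the authors' values. The differences between these lists were not tested, since only 1 array stood for each genotype.

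Promoters were examined because Dnmt1 acts on CG dinucleotides. RefSeq promoter windows of 300 bases on GRCm38.p6, from 250 bases before to 50 bases after the start, were matched by symbol to 34 of the 40 members. Psmb1, Psmb2, Psmb7, Psmc3, Psmd7 and Psmg2 had no entry. The 37 windows of the members held a median of 20 CG dinucleotides, the 8183 windows of detected genes 21, and all 32851 windows 7. The 756 windows of detected genes that differed by 2-fold or more in either direction held a median of 10. Members ranged from 3 in 1 of the windows of Psma6 to 41 in Psma7. Methylation was not measured on these arrays, and these counts describe sequence only.

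Windows are shown for the catalytic subunits with opposite differences, for the activator gene Psme1 and for the inducible Psmb9, each 5′ to 3′ on the strand of the gene with every CG in capitals. The windows lie at chr14:54617946-54618245 on the minus strand (Psmb5), chr11:70525107-70525406 on the plus strand (Psmb6), chr14:55578244-55578543 on the plus strand (Psme1) and chr17:34187281-34187580 on the minus strand (Psmb9).
Psmb5: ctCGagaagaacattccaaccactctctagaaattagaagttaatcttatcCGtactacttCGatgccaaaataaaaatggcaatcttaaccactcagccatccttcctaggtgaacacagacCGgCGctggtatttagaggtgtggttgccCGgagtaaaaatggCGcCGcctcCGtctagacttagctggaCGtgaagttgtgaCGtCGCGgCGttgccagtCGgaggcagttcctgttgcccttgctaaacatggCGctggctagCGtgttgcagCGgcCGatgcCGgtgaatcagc
Psmb6: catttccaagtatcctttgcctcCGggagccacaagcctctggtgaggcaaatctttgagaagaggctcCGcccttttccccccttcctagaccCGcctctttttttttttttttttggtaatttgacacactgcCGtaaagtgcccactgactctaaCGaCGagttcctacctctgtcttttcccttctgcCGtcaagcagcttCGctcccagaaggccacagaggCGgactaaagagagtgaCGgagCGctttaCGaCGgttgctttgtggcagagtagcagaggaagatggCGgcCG
Psme1: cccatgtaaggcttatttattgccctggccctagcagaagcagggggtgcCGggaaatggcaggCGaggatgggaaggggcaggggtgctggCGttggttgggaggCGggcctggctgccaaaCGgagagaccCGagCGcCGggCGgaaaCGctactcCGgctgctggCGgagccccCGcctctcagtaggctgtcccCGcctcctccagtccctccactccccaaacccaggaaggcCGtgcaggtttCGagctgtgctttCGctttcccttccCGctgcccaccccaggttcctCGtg
Psmb9: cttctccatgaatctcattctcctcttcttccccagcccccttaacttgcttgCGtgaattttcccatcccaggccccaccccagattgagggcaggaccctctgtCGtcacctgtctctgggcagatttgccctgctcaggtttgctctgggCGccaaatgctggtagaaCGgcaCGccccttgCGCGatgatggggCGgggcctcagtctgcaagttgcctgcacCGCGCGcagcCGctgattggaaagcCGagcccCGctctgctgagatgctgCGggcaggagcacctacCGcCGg
They hold 20 CG dinucleotides for Psmb5, 15 for Psmb6, 19 for Psme1 and 17 for Psmb9. The windows of the other inducible subunits held fewer, 11 for Psmb8 and 3 for Psmb10, against the member median of 20.

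Short motifs were searched on both strands of the windows. The core of the antioxidant response element, TGACNNNGC, which Nfe2l1 and Nfe2l2 products bind, occurred in 6 of 37 member windows (16.2%), in 13.6% of the windows of detected genes and in 12.4% of all windows. The 6 were those of Psmb5, Psmb6, Psmc6, Psmd12, Psmd9 and Psme4. Psmb5 and Psmb6 both held it, at positions 204 and 242 of the windows printed above, and differed between the arrays in opposite directions. The core bound by interferon regulatory factors, searched as AANNGAAA, occurred in 12 of 37 member windows (32.4%), in 17.9% of the windows of detected genes and in 23.9% of all windows. Psme1 held it at positions 260 and 266, both after the start, and Psmb6 at position 181, on the opposite strand in both genes. The windows of Psme2 and Psmb9 did not hold these letters. The gamma-activated site, searched as TTCNNNGAA, occurred in 2 member windows (5.41%), those of Psmd2 and Psmg1, and in 8.30% of all windows. The CCAAT box, searched as CCAAT, occurred in 12 windows (32.4%) and in 37.4% of all windows. Overlap between matches of different motifs was allowed, and a match describes letters and not a bound site.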

How the data were processed

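Total RNA of both lines was amplified, labelled with biotin and hybridised to Illumina bead arrays, per the labels' protocols. Per the file headers, the deposited intensity of a probe was not normalized; the values were linear. Each came with a deposited detection p-value. Scanner software: not given in the sources used here. The authors' processed intensity values, in another table, were also linear, with medians of 14.2 and 13.8 and a Spearman rho of 0.99998 and 0.99997 across probes with the unprocessed signals, so that scale and direction were settled and the background and scaling method stayed unknown.

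Signals were corrected with limma 3.58.1 in R 4.3.3 (neqc: normexp with negative controls inferred from detection p-values, offset 16, quantile normalization, log2). A gene was read by its probe with the highest mean level, and counted as detected at a detection p-value under 0.01 on at least 1 array. Of 25697 probes, 23978 had 1 gene symbol, 0 member symbols were changed by the RefSeq gene table, and 1719 had none. Folds "at least" were taken against the lowest level of a detected probe, 5.57 log2 on the control array. Differences are measured values without such limits elsewhere. Signals in units are those before correction and normalization, so small changes in them can run opposite to the log2 difference, for example for Psmb7, Psmd1 and Psmd4. Depth does not apply to arrays, and their number limits the precision. Every member could be named, with signals for the extremes of each group, catalytic subunits, activators and chaperones, and for partners the 3 largest differences. Members, lists and the order of comparisons were chosen with earlier results of these data known. The normalization was tested on simulated data with known folds. These folds were put only on probes well above background, so the test does not cover dim probes. Alternatives covered background, offset, normalization, the authors' values, probe choice and detection. Python 3.11.15, numpy 2.4.6, pandas 2.3.3 and matplotlib 3.10.9 were used.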

Additional observations from a re-analysis of the deposited data

How the results depend on the processing

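Under 8 alternatives (no background correction, an offset of 50, median scaling, cyclic loess, the authors' processed values, the mean of all probes, a detection p-value under 0.05 and no filter on dim probes) 0 detected proteasome genes passed 1.5-fold, and the largest difference under any of them was 0.47 log2. The median of the members ran from -0.0089 to 0.030 log2 and changed sign under cyclic loess, with the mean of all probes and without a filter. Of the 38 genes, 5 changed sides of 0 under at least 1 alternative (Psma3, Psmc2, Psmd1, Psmd6 and Psmd7), and these differed by 0.080 log2 or less as reported. Medians were taken as moved past 0.1 log2. That of the alpha ring moved to 0.10 log2 when arrays were scaled to a shared median and to 0.11 log2 with the authors' values. The median of the alpha ring changed sign under 5 alternatives, and those of the lid and of the base and ubiquitin receptor under 2 each, median scaling and the authors' values. That of the base chaperones moved to 0.091 log2 with the mean of all probes. In that setting the middle value was that of Psmd5, whose detected probe gave 0.23 log2 and whose dim probe gave -0.050 log2. Under median scaling and with the authors' values all detected genes had a median of -0.11 log2, against -0.0043 and -0.00033 log2 for the members. Counts past 1.5-fold over all detected genes were 774 higher and 824 lower, against 447 and 407 without background correction, 664 and 1074 under median scaling and 743 and 1215 with the authors' values. Psmb8 gave 0.27 log2 without background correction and 1.18 log2 with the authors' values. Without a filter on dim probes the members numbered 40. No paired analysis was possible because each genotype had 1 array and the labels give no replicate numbers. Signals near background limit Psmd2, Psmd5, Psmc6, Psmb8 and Psmb9.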
